A study of Mus musculus with 6 samples.

Results

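The 34 genes described here make cholesterol and fatty acids or control the SREBP transcription factors that switch these pathways on. They were taken from a list of names chosen with earlier results of these data known, so their counts are no independent test of the pathway. Every one of them had a probe set on the arrays that carried its symbol alone. This gave 82 probe sets of 45037 tested and 34 of 18193 named genes. Of these, 15 belong to sterol synthesis and transport, 14 to fatty acid and glycerolipid synthesis, and 5 are regulators. The samples were 6 fetal mouse livers at E18.5, each on 1 Affymetrix array. The 3 controls had the genotype Hnf4LoxP/+AlfpCre, with 1 loxP-flanked allele of the Hnf4 gene, and the 3 null livers had the genotype HNF4LoxP/LoxP AlfpCre, with both alleles flanked. All 6 carried AlfpCre, in which albumin and alpha-fetoprotein regulatory elements drive Cre recombinase in the hepatocyte lineage, so the controls were heterozygous wherever Cre had acted. HNF4 alpha is a nuclear receptor of hepatocytes, and the whole livers also held blood-forming, endothelial and mesenchymal cells in which this Cre is not directed to act.

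SREBP proteins are made as precursors in the membrane of the endoplasmic reticulum. The escort protein SCAP carries them to the Golgi when sterols are scarce, where proteases release the active factor, and the INSIG proteins hold SCAP back when sterols are plentiful. SREBP-2 acts mainly on genes of cholesterol synthesis and SREBP-1c mainly on genes of fatty acid synthesis, and in the liver SREBP-1c also responds to insulin and to the oxysterol receptor LXR. Levels of Srebf1 and Srebf2 RNA therefore say nothing direct about the amount of active protein.

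The promoters of 5 genes are shown because the genes behind them behaved differently in these livers although they are targets or regulators of 1 system: Hmgcs1 and Insig1 fell, Mvk did not change measurably, and Elovl5 and Fads2 were among the fatty acid genes that fell most. The sequences are the 250 bases before the annotated start of transcription in RefSeq, build GRCm38.p6, written 5′ to 3′ on the strand of the gene. Capitals mark the sterol regulatory element TCACNCCAC, the E-box CACGTG and the CCAAT box, the last in either orientation (ATTGG on the other strand).
Hmgcs1, chr13:119690101-119690350, plus strand: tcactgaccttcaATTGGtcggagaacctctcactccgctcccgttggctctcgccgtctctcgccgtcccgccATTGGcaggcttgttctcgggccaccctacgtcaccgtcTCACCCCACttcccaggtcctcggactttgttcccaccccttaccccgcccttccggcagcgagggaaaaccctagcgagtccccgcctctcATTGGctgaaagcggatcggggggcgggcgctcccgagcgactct
Mvk, chr5:114444019-114444268, plus strand: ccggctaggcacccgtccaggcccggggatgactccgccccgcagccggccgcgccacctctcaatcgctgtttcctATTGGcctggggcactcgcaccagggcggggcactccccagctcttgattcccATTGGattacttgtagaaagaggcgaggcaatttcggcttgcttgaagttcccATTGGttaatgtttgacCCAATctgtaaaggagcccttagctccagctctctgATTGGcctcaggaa
Insig1, chr5:28071162-28071411, plus strand: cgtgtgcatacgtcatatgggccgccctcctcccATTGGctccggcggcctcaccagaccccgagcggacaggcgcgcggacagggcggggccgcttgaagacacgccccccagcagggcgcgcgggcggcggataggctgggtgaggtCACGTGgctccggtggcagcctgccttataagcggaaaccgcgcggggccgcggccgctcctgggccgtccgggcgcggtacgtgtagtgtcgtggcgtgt
Elovl5, chr9:77917115-77917364, plus strand: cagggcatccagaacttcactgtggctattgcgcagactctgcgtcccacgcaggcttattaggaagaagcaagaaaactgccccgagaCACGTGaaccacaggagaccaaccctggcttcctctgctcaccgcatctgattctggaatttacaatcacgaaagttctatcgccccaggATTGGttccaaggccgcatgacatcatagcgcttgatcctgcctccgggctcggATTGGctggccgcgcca
Fads2, chr19:10101504-10101753, minus strand: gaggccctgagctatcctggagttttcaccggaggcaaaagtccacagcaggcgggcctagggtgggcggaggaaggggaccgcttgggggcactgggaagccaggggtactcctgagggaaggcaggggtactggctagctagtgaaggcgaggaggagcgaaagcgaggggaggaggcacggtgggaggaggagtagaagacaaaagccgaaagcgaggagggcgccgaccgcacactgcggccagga

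Windows from 250 bases before to 50 after the start were in the RefSeq table for 27 of the 34 genes, some with several starts, 37 windows in all. The CCAAT box, bound by the SREBP partner NF-Y, was present in 64.9% of these windows against 37.4% of all 32851 windows, searched on both strands. It occurred in 9 of the 11 matched genes that fell by their representative probe set and in 14 of the 16 that were not called. The sterol regulatory element in this strict spelling was found in the Hmgcs1 window alone among the members, 137 bases before the start, and in 1.24% of all windows. The E-box, which SREBP-1 can also bind, was in 18.9% of the member windows and 7.15% of all windows. Overlapping Scap windows share the same E-box, which is counted in each, and by gene the E-box was in 6 of 27. Of the matched genes 5 that fell held it (Insig1, Scap, Sc5d, Dhcr7 and Elovl5), and 1 whose representative probe set was not called, Hsd17b7. The GC box GGGCGG was in 64.9% and 35.7% of windows, and the HNF4-type motif CAAAGTCCA was in no member window and in 0.475% of all windows. Matches of different motifs did not overlap in the member windows. A match is a description of the sequence, and the absence of a match concerns these letters in this window only.

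Part of the pathway fell in the null livers, and no member rose. A gene is represented in all counts by its brightest probe set, the one whose log2 values averaged highest across the 6 arrays. On this rule 15 of the 34 genes fell at an adjusted p under 0.05 (limma, with Benjamini-Hochberg adjustment over all probe sets), against 7.85% of all named genes. None of the 34 rose, where 1.56% of all genes did, and at an unadjusted p under 0.05 the counts were 24 lower and 0 higher, against 15.2% and 9.1% of all genes. With the highest mean intensity in place of log2, an alternative added after seeing the data, Hsd17b7 changed its probe set and 16 members fell, against 7.95% of all genes. In 24 genes every null liver read below every control, which was so in 17.9% of all genes. Each of the 34 had a group mean above 99.6, the highest of the array medians, while all named genes include dimmer ones. The shares among genes of like brightness are not given here. The median log2 change over the 34 genes was -0.65, and it was 0.01 over all genes. Among the 82 probe sets 31 fell and 0 rose, against 5.55% of all probe sets that fell, and 20 genes had at least 1 probe set that fell. Log2 changes are null minus control on the scale log2(intensity + 32), so changes of dim genes come out too small. A fold is the same change on a linear scale and appears where both group means exceed 99.6, the highest of the array medians.

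**Figure D1:**
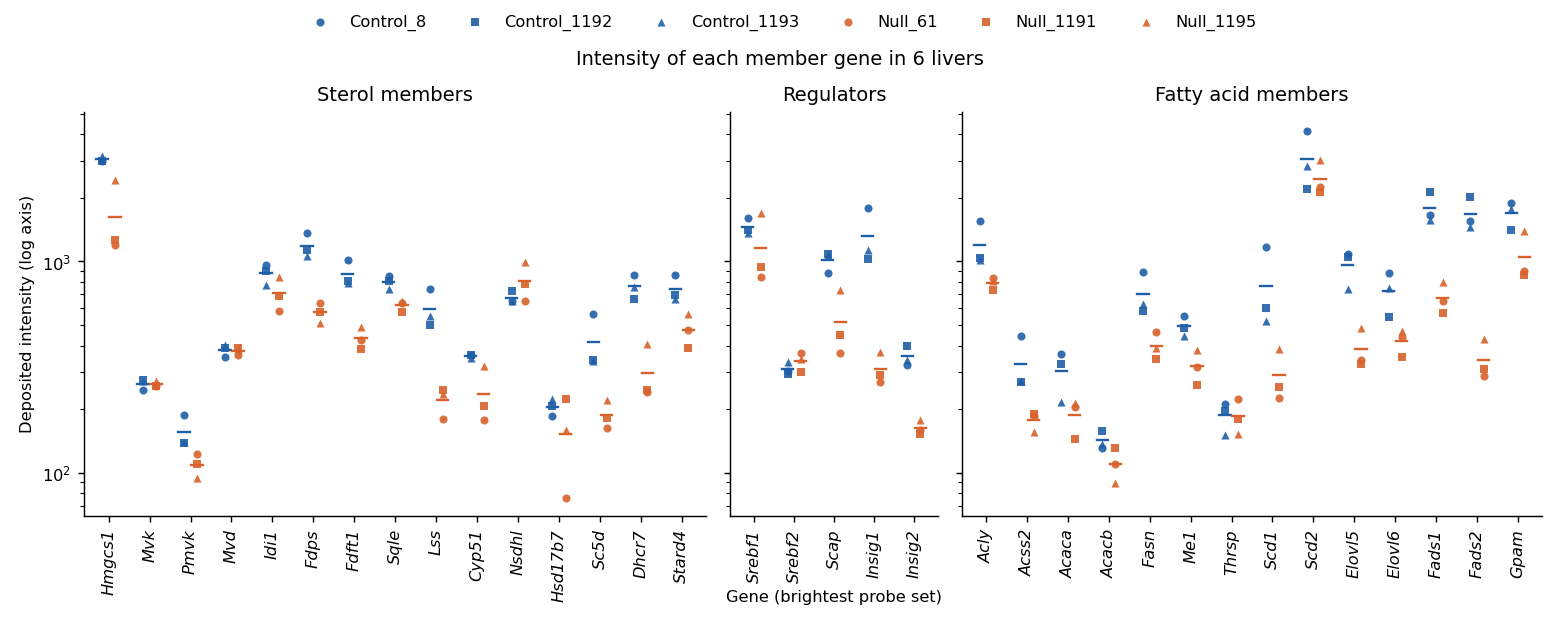
Deposited intensity (log axis) of the brightest probe set of each of the 34 genes in 3 control livers (blue) and 3 null livers (orange), with bars at the group means; levels of different genes are not comparable, because probes differ. Insig1 lay between 1025 and 1795 in the controls and between 267.5 and 371 in the nulls, while Mvk and Mvd overlapped.

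Several facts about the arrays bear on these values. The brightest probe set of the targeted gene, Hnf4a, read 2607, 2817 and 2877 in control livers, against 1778, 1562 and 2778 for Null_61, Null_1191 and Null_1195, and was not called (adjusted p = 0.194). Of its other 3 probe sets, a pair fell (log2 change -0.69 and -0.55, adjusted p = 0.0434 and 0.0488), and the last had a change of -0.54 (adjusted p = 0.0785). In all of these every null read below every control, with Null_1195 at 834, 327 and 1395 in that order. Whether these probes fall inside the deleted exons was not known here, so they do not check the labels. Control_8 and Null_61 come from another run of title numbers than the other 4 arrays. By Xist and Y-linked probe sets Control_8, Null_1191 and Null_1195 read as female and the rest as male. Of 8 measured hepatocyte markers 6 fell and 0 rose, with summed intensity of 85720 to 87200 in the controls and 52240 to 57250 in the nulls. Those not called were Alb and Afp, with log2 changes of 0.02 and -0.06, and the largest falls were in Apoa1 and Apoa2 (-1.94 and -2.41). Control means of Alb and Afp, 10530 and 11970, lay near the array maxima of 12298.5 to 12608.4, as did that of Apoa1 at 11830. Whether small falls of Alb and Afp were compressed there was not tested. In whole livers fewer cells of a type and less RNA per cell cannot be told apart. Of 10 macrophage markers 3 rose (sums 3452 to 3891 and 4942 to 7799), of 8 endothelial markers 3 fell (2223 to 2565 and 1565 to 1845), and of 5 megakaryocyte markers 3 fell (4996 to 7010 and 3534 to 4043). Adipocytes share the lipogenic program, and none of 5 adipocyte markers was called, the sums were 897 to 1029 and 527 to 878, and Adipoq and Cidec read 0 or less in at least 1 array. None of 7 erythroid, 8 neutrophil, 8 mesenchymal and 5 cholangiocyte markers was called (sums of 18260 to 19310 in the controls and 20740 to 21830 in the nulls for erythroid, 30240 to 34080 and 27790 to 34500 for neutrophil, 4238 to 5230 and 5124 to 7583 for mesenchymal, 657 to 741 and 628 to 806 for cholangiocyte), and no marker of these 4 lists read 0 or less. Krt19, Cftr and Krt7 of the cholangiocyte list and Lrat of the mesenchymal list had control means below 99.6, the highest of the array medians. For these dim markers the lack of a call says little. The part of the marker shifts in the results was not tested.

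The regulators split, with both retention factors and the escort lower and both SREBP transcripts not called. Insig1, which retains SCAP in the endoplasmic reticulum and is itself an SREBP target, read 1795 in Control_8, 1025 in Control_1192 and 1129 in Control_1193, and 267.5, 290 and 371 in Null_61, Null_1191 and Null_1195. All nulls lay far below all controls, and Control_8 was the highest array. The log2 change was -1.95 (SE 0.21, adjusted p = 0.000611), a 3.86-fold fall. Insig2, the second retention factor, which is known for control by insulin rather than by SREBP, read 325, 400 and 341 in control livers against 159, 153 and 177 in null livers. The nulls sat within a narrow band below every control, and the log2 change was -0.99 (SE 0.13, adjusted p = 0.00154). Its other two probe sets fell too, by 0.96 and 0.91 on the log2 scale. Scap read 882, 1087 and 1073 in control livers against 371, 448 and 730 in null livers. Here Null_1195 came closest to the controls without reaching them, and the log2 change was -0.98 (SE 0.22, adjusted p = 0.0316). The call of Scap was lost without Control_8, Control_1192, Control_1193 or Null_1191 (adjusted p = 0.0600, 0.135, 0.115 and 0.121), and its second probe set, at 86.9 ± 6.39 in the controls (SD, n = 3), had a log2 change of -0.03.

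Srebf1, which encodes SREBP-1, read 1604, 1408 and 1364 in control livers against 840, 937 and 1692 in null livers. Null_61 and Null_1191 were below all controls, and Null_1195 was above all of them. The log2 change of -0.39 (SE 0.23) was not called (adjusted p = 0.376). Without Null_1195 it was -0.69 (adjusted p = 0.0145), without Null_1191 it was -0.28 (0.646), and without Null_61 it was -0.20 (0.586). It had 1 probe set, and which Srebf1 transcripts that reads was not examined. Srebf2 read 303, 294 and 335 in control livers against 367, 301 and 345 in null livers, so the groups overlapped, with a log2 change of 0.11 (SE 0.12, adjusted p = 0.662). The second probe set of Srebf2 had a log2 change of 0.00.

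In the sterol arm 6 of 15 genes fell by their brightest probe set, 3 of them before squalene and 3 after it. The median log2 change was -0.58, and 10 of the 15 had all nulls below all controls. Hmgcs1, the synthase that makes HMG-CoA, read 2989, 2998 and 3146 in control livers against 1198, 1259 and 2435 in null livers. The controls were tight, and Null_1195 was well above the other two nulls. The log2 change was -0.96 (SE 0.24, adjusted p = 0.0451), and 4 of its 5 probe sets fell, the fifth being near background at 12.3 ± 6.57 in the controls. The call of the brightest probe set held without Null_1195 (log2 change -1.29, adjusted p = 0.000146) and was lost without any of the other 5 arrays, with adjusted p between 0.0650 and 0.161.

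In the next steps, from mevalonate to isopentenyl diphosphate and its isomer, no gene was called. Mvk and Mvd barely moved by their brightest probe sets, and Pmvk and Idi1 had larger negative changes. Mvk, mevalonate kinase, read 248, 274 and 271 in control livers against 258, 259 and 272 in null livers, an overlap with a log2 change of -0.01 (SE 0.11). Mvd, the decarboxylase, was at 381.5 ± 25.9 in the controls and 378 ± 15.8 in the nulls (log2 change -0.01, SE 0.11), and its second probe set had a log2 change of -0.35 (adjusted p = 0.175). Pmvk, the second kinase, went from a mean of 156 to 109, all nulls below all controls, with a log2 change of -0.41 that was not called (adjusted p = 0.153). Idi1, the isomerase, had a log2 change of -0.31 (adjusted p = 0.291). Over all settings tried, Mvk ranged from -0.05 to 0.10 and Mvd from -0.18, with the mean of probe sets, to 0.13, with quantile normalization.

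At the prenyl and squalene steps Fdps and Fdft1 fell, and Sqle was not called. Fdps, which makes farnesyl diphosphate, read 1366, 1136 and 1057 in control livers against 639, 579 and 512 in null livers, with no overlap. Its log2 change was -0.999 (SE 0.13, adjusted p = 0.0022), and its second probe set was at background. Fdft1, squalene synthase, read 1017, 812 and 795 in control livers against 426, 385 and 488 in null livers. The groups were well apart, with a log2 change of -0.96 (SE 0.14, adjusted p = 0.0033). A second of its 4 probe sets fell by 0.83, and the other two, dim ones, were at 0.04 and -0.02, so the mean over its probe sets was -0.44 (adjusted p = 0.0599). Sqle, the epoxidase that follows and a rate-limiting step, had every null below every control, at 620.5 ± 40.6 against 803.5 ± 55.7, yet a log2 change of only -0.36 (SE 0.11), which was not called (adjusted p = 0.104).

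Below squalene, the changes ranged from a fall of more than 2-fold to none. Lss, which closes the rings to lanosterol, read 744, 499 and 551 in control livers against 179.5, 248 and 237 in null livers. All nulls were below all controls, and the log2 change was -1.31 (SE 0.17, adjusted p = 0.0021), a 2.47-fold fall. Dhcr7, the last reductase of cholesterol synthesis, read 865, 666 and 757 in control livers against 240, 247 and 407 in null livers. Null_1195 was again the highest null, and the log2 change was -1.30 (SE 0.20, adjusted p = 0.00432). Sc5d, the desaturase just before it, read 565, 342 and 339 in control livers against 162, 182 and 221 in null livers. Control_8 stood above the other controls, and the log2 change was -0.99 (SE 0.20, adjusted p = 0.0192). It was lost without Null_1191 (adjusted p = 0.0774) and with the mean of probe sets (-0.51, 0.0603).

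Cyp51, the lanosterol demethylase, read 360, 361 and 348 in control livers against 177.5, 207 and 321 in null livers. Null_1195 was close to the controls and the other two nulls were not. The log2 change of -0.58 was not called (adjusted p = 0.115), and without Null_1195 it was -0.79 (adjusted p = 0.0112). Nsdhl, which acts in removing the C4 methyl groups, was the sterol gene with the most positive change, at 675 ± 45.3 and 807 ± 172 (log2 change 0.23, adjusted p = 0.445). Hsd17b7, the reductase of the same complex, gave a split reading. Its brightest probe set on the log2 scale read 185, 207 and 224 in control livers against 75.95, 224 and 159 in null livers, so that Null_1191 was at the top of the control range and Null_61 far below, and it was not called. Another pair of probe sets fell: the first read 238, 185 and 197 in control livers against 51.1, 57.95 and 65.3 in null livers, the second 332, 265 and 313 against 54.2, 55.7 and 85.7. No null came near a control in either, with means going from 207 ± 27.9 to 58.1 ± 7.11 and from 303 ± 34.6 to 65.2 ± 17.8 (log2 change -1.40 and -1.80, adjusted p = 0.000261 and 0.000163). The second of them had the highest mean intensity of the 4 on the linear scale, on which rule Hsd17b7 fell and the sterol count was 7. The last probe set had all nulls above all controls with a log2 change of 0.23. Stard4, a cytosolic carrier of sterol, had all nulls below all controls at 475 ± 86.9 against 740 ± 106, and its log2 change of -0.61 missed the threshold (adjusted p = 0.0565), as it did not without Null_1195 (-0.73, 0.0385).

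**Figure D2:**
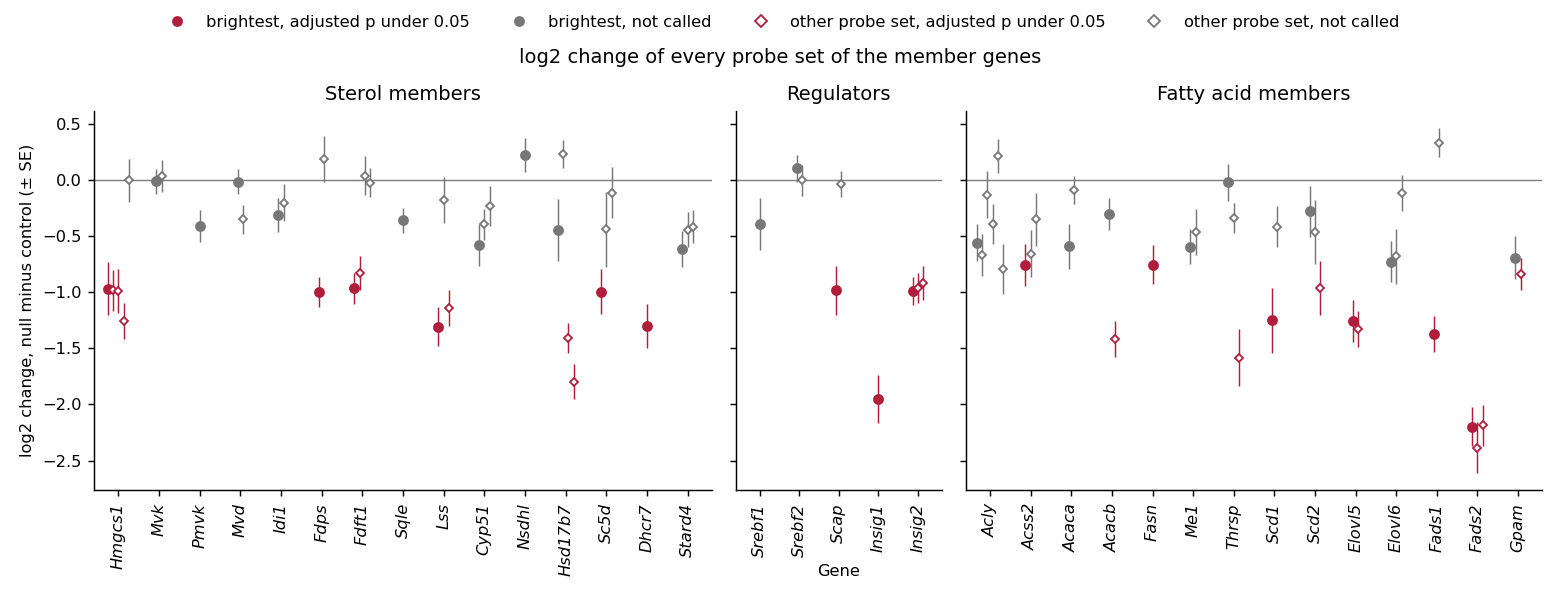
Log2 change, null minus control, with its standard error for all 82 probe sets, by gene; filled circles are the brightest probe set of a gene, open diamonds the others, and red marks an adjusted p under 0.05. All 31 red points lie below 0, and Hsd17b7, Thrsp, Acacb, Scd2 and Gpam have red points only at probe sets other than the one with the highest mean log2 value.

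In the fatty acid arm 6 of 14 genes fell. The median change was -0.71 on the log2 scale, with all nulls below all controls in 11. The 7 genes that lead from cytosolic acetyl-CoA to palmitate had a median of -0.59 with 2 falls, and the 6 desaturases and elongases had a median of -1.25 with 4 falls. The division into these steps was drawn up after values had been seen. Fads2, the delta-6 desaturase that starts the synthesis of long polyunsaturated fatty acids, read 1560, 2026 and 1459 in control livers against 287, 310 and 432 in null livers. The groups were widely separated, with a log2 change of -2.20 (SE 0.18, adjusted p = 9.74e-05), a 4.59-fold fall and the largest of the 34. Its other two probe sets gave -2.39 and -2.19.

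Fads1, the delta-5 desaturase of the same route, read 1659, 2137 and 1573 in control livers against 651, 568 and 800 in null livers. Again no null came near a control, and the log2 change was -1.37 (SE 0.16, adjusted p = 0.000983). A dim second probe set of Fads1 had all nulls above all controls, at 143 ± 20.8 against 106 ± 7.19, and was not called (log2 change 0.34, adjusted p = 0.183). Elovl5, the elongase that works between these desaturases, read 1090, 1052 and 742 in control livers against 341, 327 and 485 in null livers. The log2 change was -1.25 (SE 0.19, adjusted p = 0.00434), and its second probe set gave -1.33. Control_8 was not the highest control in either desaturase.

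Scd1, the main stearoyl-CoA desaturase of the adult liver, read 1171 in Control_8 but 600 and 521 in the other controls, and 227, 255 and 387 in the nulls. All nulls were below all controls, and the size rested in part on Control_8: the log2 change was -1.25 (SE 0.29, adjusted p = 0.0378) with it and -0.91 (adjusted p = 0.0635) without it. The call was also lost without Control_1192, Null_61 or Null_1191 (adjusted p = 0.0899, 0.0606 and 0.134). With quantile normalization and with the mean of probe sets it was lost too (adjusted p = 0.0626 and 0.0501). The second probe set of Scd1 went from 184 ± 60.8 to 127 ± 2.17, all nulls below all controls. Its log2 change of -0.41 was not called (adjusted p = 0.2475). Scd2, the isoform prominent outside the adult liver, read 4164, 2192 and 2817 in control livers against 2247, 2124 and 3014 in null livers. These groups overlapped, with a log2 change of -0.28 (adjusted p = 0.527), though 1 of its 3 probe sets, at 914, 549 and 921 in control livers against 439.8, 461 and 272 in null livers, fell with a log2 change of -0.96 (adjusted p = 0.0497). Elovl6, which lengthens palmitate to stearate, read 883, 545 and 750 in control livers against 441, 355 and 469 in null livers. All nulls were lower, and the log2 change of -0.72 just missed the threshold (adjusted p = 0.0511); it passed without Control_1192 (-0.91, 0.0265) or Null_61 (-0.76, 0.0496).

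Of the enzymes that make palmitate from acetyl-CoA, Fasn and Acss2 fell. Fasn, fatty acid synthase, read 893, 581 and 631 in control livers against 466, 345 and 388 in null livers. No null reached a control, and the log2 change was -0.75 (SE 0.18, adjusted p = 0.0393). The call was kept without Null_61 (0.0199) and was lost without Control_8, Control_1192, Control_1193, Null_1191 or Null_1195 (adjusted p = 0.109, 0.0610, 0.0907, 0.143 and 0.105). Acss2, which makes cytosolic acetyl-CoA from acetate, read 443, 269 and 270.5 in control livers against 186, 189 and 156 in null livers. Control_8 was again high, and the call (log2 change -0.75, SE 0.19, adjusted p = 0.0491) was lost when any 1 of the 6 arrays was left out, at adjusted p from 0.05002 to 0.147.

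Acly, which makes acetyl-CoA from citrate, had 6 probe sets and no call. Its brightest read 1555, 1038 and 1017 in control livers against 835, 736 and 809.5 in null livers, with all nulls lower, a log2 change of -0.56 and an adjusted p of 0.0920. Acaca, acetyl-CoA carboxylase 1, had every null below every control as well, at 188 ± 38.2 against 302 ± 77.2 (log2 change -0.59, adjusted p = 0.139). The margin was narrow, with Null_1195 at 214.9 and Control_1193 at 215.3. Me1, the malic enzyme that supplies NADPH, went from 495 ± 55.5 to 320 ± 61.03 without overlap (log2 change -0.59, adjusted p = 0.0574, and 0.0340 without Null_1195). Gpam, which starts triglyceride synthesis from acyl-CoA, had a log2 change of -0.69 in its brightest probe set (adjusted p = 0.0711, and 0.00961 without Null_1195) and of -0.84 in the second, which read 1093, 803.5 and 889 in control livers against 559, 446.5 and 505 in null livers, with no overlap (adjusted p = 0.00834).

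Acacb and Thrsp depended on the probe set. Acacb, the carboxylase isoform that makes malonyl-CoA at mitochondria, read 131, 158 and 137 in control livers against 110, 131 and 89.2 in null livers with its brightest probe set, a log2 change of -0.30 that was not called (adjusted p = 0.274). Its second read 137, 110 and 119 in control livers against 35.5, 15.7 and 27.65 in null livers, a clear separation with a log2 change of -1.42 (SE 0.16, adjusted p = 0.000746). Thrsp, the lipogenic protein Spot 14, was at 187 ± 31.9 and 185 ± 36.1 in its brightest probe set and overlapped. Another probe set read 268, 108 and 165 in control livers against 31.6, 29.9 and 46.3 in null livers, a fall of 1.58 on the log2 scale (SE 0.25, adjusted p = 0.00582). The third had a log2 change of -0.33 and was not called.

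Set against each other array by array, the 2 arms did not separate. Each array was compared with the control mean of each gene, and the median was taken over the arm. For Null_61, Null_1191 and Null_1195 it was -0.85, -0.70 and -0.32 over the sterol arm, and -0.62, -0.91 and -0.55 over the fatty acid arm. The sterol arm was thus the lower in Null_61, by 0.23, and the higher in Null_1191 and Null_1195, by 0.21 and 0.23. The controls spanned -0.09 to 0.13 in the sterol arm and -0.18 to 0.24 in the fatty acid arm, with Control_8 highest in both. Over the 3 nulls together the arm medians differed by 0.13, within the spread between the null livers, and by -0.0062 without Null_1195. All genes had medians from -0.03 to 0.03 in the 6 arrays. Without Fads1, Fads2 and Elovl5 the fatty acid median was -0.59.

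**Figure D3:**
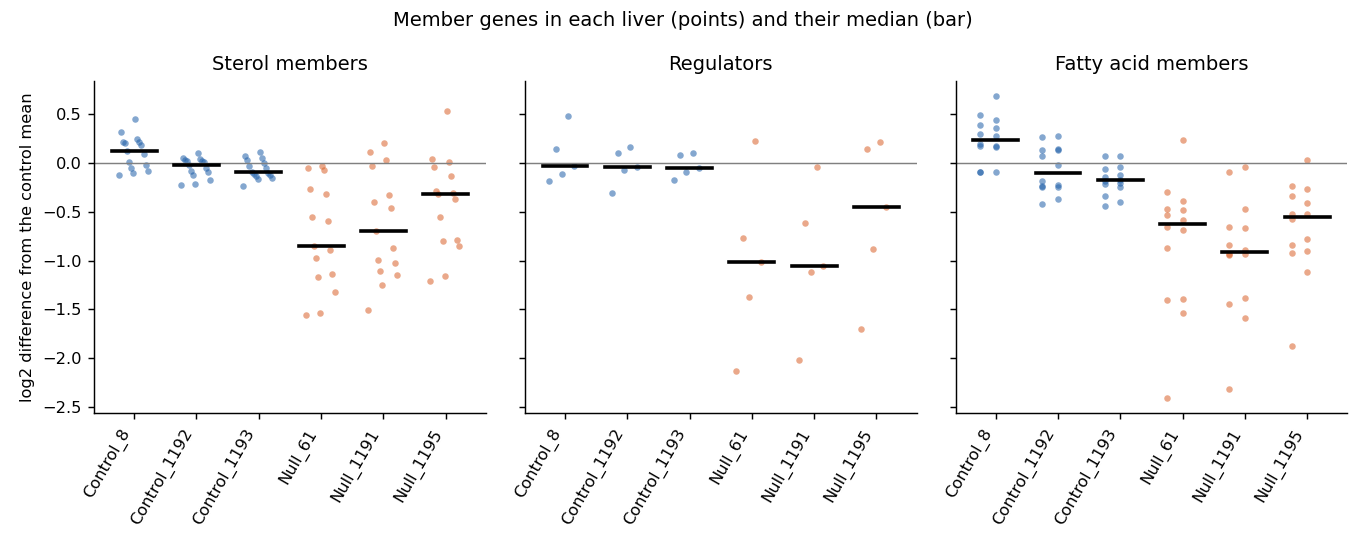
Log2 difference of each gene (point) from its control mean in each of the 6 livers, by arm, with the median as a black bar. The median of the sterol genes is -0.85 in Null_61 and -0.32 in Null_1195, and that of the fatty acid genes is 0.24 in Control_8.

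Arrays of 1 group also differed from each other. Null_1195 was the highest of the nulls in 23 of the 34 genes (10 of 15 sterol, 4 of 5 regulator and 9 of 14 fatty acid genes), where it was the highest in 37.6% of all genes. Control_8 was the highest control in 22 of the 34 genes (11 of 14 fatty acid genes), against 27.6% of all genes. With the run of title numbers as a block, 22 genes fell, the 15 and also Pmvk, Cyp51, Stard4, Acly, Me1, Elovl6 and Gpam, and the fatty acid count went from 6 to 10. In the 4 arrays of the longer numbers alone 14 fell, all but Hmgcs1 of the 15. Without Null_1191 only 9 of the 34 were called, and the fatty acid count was 3 without Null_1191 or Control_8. The shares of all genes called in these settings are not given here, so the counts do not show whether members moved more than genes in general. Calls of Fdps, Lss, Dhcr7, Insig1, Insig2, Elovl5, Fads1 and Fads2 held in each of the 17 alternatives, and that of Fdft1 in all but the mean of its probe sets.

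In 3 of 6 pairs of related genes the nulls lay apart from the controls. The difference between both genes was taken within each array, and the pairs were compared by an exact two-sided permutation test, which with 3 arrays in each group cannot go below 0.1. The level of Insig1 relative to Insig2 changed by -0.96 on the log2 scale, with no overlap between groups (exact permutation p = 0.1, adjusted over the 6 pairs 0.2). Scd1 relative to Scd2 changed by -0.97 and Fads1 relative to Fads2 by 0.83, both without overlap (exact permutation p = 0.1 and adjusted 0.2 for each). In Fads1 and Fads2, which lie side by side in the genome, the difference in single controls lay between -0.01 and 0.02 of the control mean. Elovl5 relative to Elovl6 changed by -0.53, Srebf1 relative to Srebf2 by -0.50 and Acaca relative to Acacb by -0.29, all with overlap (exact permutation p = 0.2, 0.3 and 0.5), and the last turned to 0.52 with the mean of probe sets. The same setting gave -0.26 for Scd1 relative to Scd2 and 1.74 for Fads1 relative to Fads2, so the size of both depended on the probe sets used. With 1 array left out, the change ranged from -0.74 to -0.27 for Elovl5 relative to Elovl6 (smallest without Control_1192), from -0.79 to -0.25 for Srebf1 relative to Srebf2 (smallest without Null_61) and from -0.49 to -0.03 for Acaca relative to Acacb (smallest without Null_1191).

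**Figure D4:**
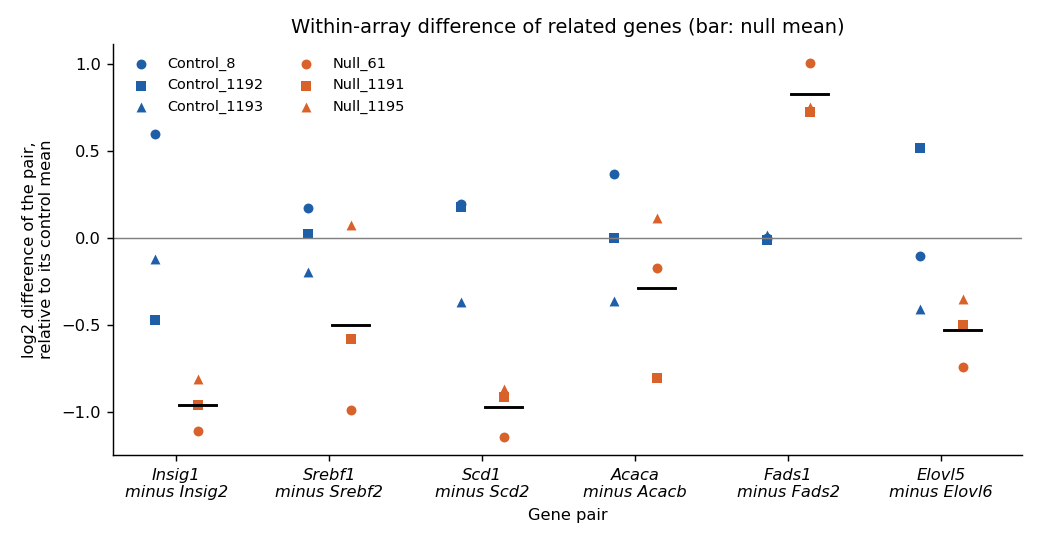
Within-array log2 difference of 6 pairs of related genes, relative to the mean of the controls, in 3 control livers (blue) and 3 null livers (orange), with a bar at the null mean. The nulls lie apart from the controls for Insig1 and Insig2, Scd1 and Scd2, and Fads1 and Fads2, and overlap them for the other three pairs.

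Of 59 other genes of these pathways that were measured, 16 fell and 0 rose, where 7.85% and 1.56% of all genes did. Their list was also chosen with earlier results of these data known. There were 5 falls among 9 other sterol genes, 9 among 30 other fatty acid and glycerolipid genes, 2 among 4 sterol exporters and 0 among 16 further regulators. The 5 sterol falls include Acat1, which is a thiolase of ketone metabolism. Elovl2, the elongase of the longest polyunsaturated fatty acids, read 1888, 2492 and 2016 in control livers against 80.8, 113 and 156 in null livers, and had the largest change, -3.89 on the log2 scale (SE 0.19, adjusted p = 4.98e-06). It acts after Fads2, Elovl5 and Fads1 in 1 route, and all 4 fell. Lpin1, the phosphatidate phosphatase, fell 7.17-fold, and the acyltransferases Agpat2, Agpat3 and Dgat2, which act with it in building triglyceride and phospholipid, had log2 changes of -1.71, -1.46 and -1.42. Tecr and Hsd17b12, which complete each cycle of elongation, fell by 1.10 and 0.82, and Acsl5, which activates fatty acids, by 1.02.

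Among the other sterol genes, Tm7sf2 and Ebp, a reductase and an isomerase of the later steps, fell by 1.99 and 1.02 on the log2 scale. Tm7sf2 read 847, 925 and 955.5 in control livers against 232, 181 and 201 in null livers. Lbr, which encodes a protein with the same reductase activity as Tm7sf2, read 2022, 2163 and 1962 in control livers against 2471, 2499 and 2460 in null livers, all higher, with a log2 change of 0.27 that was not called (adjusted p = 0.123, and 0.0154 with quantile normalization). Acat1, a mitochondrial thiolase of ketone metabolism, fell by 1.28, and Abca1, the exporter of cholesterol to lipoproteins, by 1.15. The proteases Mbtps1 and Mbtps2, which release SREBP, had log2 changes of -0.15 and 0.05, and the partner factor genes Nfya, Nfyb, Nfyc and Sp1 had changes between 0.05 and 0.15, none of them called.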

How the data were processed

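Each liver gave 1 array; per the labels' protocols, RNA came from RNeasy columns and labelling followed Affymetrix's standard. The deposited table holds intensities that are linear, with 0.909% to 1.34% of an array's values below 0. The authors' summarisation, background correction and scaling are not stated in these sources. Array medians were 91.8 to 99.6, and no 2 arrays were identical. Nothing says whether livers shared a litter, so p-values reflect variation among these arrays only, which may be technical, and their number limits the precision.

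Negative intensities were raised to 0, a pseudocount of 32 was added, and log2 values were fitted without further scaling in limma 3.58.1 (R 4.3.3; lmFit, eBayes with trend, all 6 arrays, no covariate). Benjamini-Hochberg adjustment covered the 45037 probe sets left after 64 control probe sets, with a two-sided threshold of 0.05. The fit was also run on simulated data with planted changes and independent noise for each probe set. That simulation does not imitate differences shared across a whole array. Symbols came from the platform annotation, where 34945 of these probe sets had 1, 932 several and 9160 none. A gene stands for its singly named probe set with the highest mean log2 value; the highest linear mean was added as an alternative after seeing the data. The members and lists were chosen with earlier results of these data known. All 34 members are named, with values per array where a probe set was called and for the regulators. Of the other pathway genes the 12 called with the smallest adjusted p are named, and Lbr, the proteases and partner factors were added after their values were seen. Of 75 listed symbols, some of them older synonyms, 59 were measured. Promoters are from RefSeq (GRCm38.p6); 1891 of 1891 overlapping windows on opposite strands matched as reverse complements. Alternatives are in the closing section.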

Additional observations from a re-analysis of the deposited data

How the results depend on the processing

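The alternatives were quantile normalization, centred array medians, pseudocounts of 1 and 100, probe sets above the median level only, no intensity trend, the mean of a gene's probe sets, the title number run as a block, the 4 arrays of the longer numbers, embryo sex as a term, each array left out and, added after seeing the data, the probe set with the highest linear mean, which gave 16 members that fell. The count of members that fell was 15, and 10 to 22 in the first 10 alternatives, and 9 to 18 with 1 array left out. The share of all genes called in each of these alternatives is not given here. The fatty acid count of 6 was 3 with quantile normalization and 10 with the number block, and 3 to 6 with 1 array left out. Other pathway genes that rose numbered 3 with quantile normalization (Lbr, Acsl4 and Npc2), 1 with the number block, 1 in the 4 arrays, and 0 to 1 with 1 array left out. No member rose in any setting. The pair Acaca minus Acacb turned to 0.52 with the mean of probe sets. Uncalled changes near 0 turned sign: with quantile normalization Mvk was 0.10, Mvd 0.13 and Thrsp 0.051; with the mean of probe sets Mvk was 0.016; with sex as a term Mvk was 0.0073 and Thrsp 0.0039; in the 4 arrays Scd2 was 0.026. With 1 array left out, Mvk ranged from -0.049 to 0.017, Mvd from -0.064 to 0.023 and Thrsp from -0.14 to 0.10. The arm medians moved by less than the spread between null livers, and the sterol minus fatty acid difference ran from -0.0062 to 0.27 with 1 array left out. The cause of these shifts was not tested. No paired analysis was possible because the title numbers are not shared between the groups. Genes near the array medians, such as Acacb and Pmvk, are measured with the least signal.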
